A study of Homo sapiens and Mus musculus with 10 samples.

Results

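The STAT5 outputs PIM, SOCS and CISH, together with the STAT factors themselves, were followed in a human and a mouse myeloid cell line treated with WM-1119, a small-molecule inhibitor of the histone acetyltransferase KAT6A. The set comprised 10 genes taken by name: the transcription factors STAT3, STAT5A and STAT5B, the feedback inhibitors CISH, SOCS1, SOCS2 and SOCS3, and the kinases PIM1, PIM2 and PIM3. All 10 were present among 27800 human and 24493 mouse gene symbols, and all 10 passed the requirement of a mean of at least 1 TPM in both lines. In the mouse line Cish and Socs3 averaged under 1 TPM with DMSO and passed through their WM-1119 libraries. MOLM-13 cells derive from human acute myeloid leukaemia and carry an MLL fusion and an activating internal duplication in the receptor kinase FLT3. It received 4 µM WM-1119 for 4 days (3 libraries) or DMSO (3 libraries). ER-Hoxa9 cells are mouse myeloid progenitors held immature by a Hoxa9 protein fused to the estrogen receptor, and both their DMSO and WM-1119 cultures were given 0.5 µM estradiol and stem cell factor, the ligand of KIT. It received 2 µM WM-1119 for 4 days (2 libraries) or DMSO (2 libraries), so species, dose and medium all differ between the lines.

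Cytokine receptors and some receptor tyrosine kinases cause phosphorylation of STAT3 and STAT5, either through Janus kinases (JAKs) or directly, and the phosphorylated dimers enter the nucleus and bind DNA. CISH, SOCS and PIM genes are among the textbook targets. CISH and SOCS proteins bind active receptors or JAKs and shut the signal off, and PIM kinases, which are active as soon as they are made, favour survival and protein synthesis. In myeloid leukaemia with mutant FLT3 the pathway is known for its constant activity. RNA levels do not report STAT phosphorylation.

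CISH is shown first as the member with the most matches to the STAT recognition motif in the promoter windows searched. STAT5 dimers recognise TTCNNNGAA, which reads the same on both strands. In the RefSeq promoter table (GRCh38.p14), the 250 bases before the start were searched, and 9 of the 10 human members had such a window, some of them more than 1. SOCS2 had no entry. CISH was the only one of the 9 with a match, and it had 4. For some members the RefSeq and GENCODE starts differ. The SOCS3 windows (78360926-78361175 and 78359668-78359917, minus strand) miss the bases just before its GENCODE gene, which reaches 78360077. The PIM3 and STAT5B windows lie inside their GENCODE genes. The bases just before those 3 GENCODE starts were therefore not searched. The PIM1 window ends at 37170151, short of its GENCODE start at 37170203. The SOCS1 window (minus strand) stops at 11256205, short of its GENCODE gene, which reaches 11256200. The STAT3 and CISH windows lie partly inside their GENCODE genes. For these members the 250 bases before the GENCODE start were searched only in part. Of 35116 windows of this length in the table, 6.57% held at least 1 match, and 5 windows held at least 4. The stretch below lies at chr3:50611832-50612024, minus strand, before both the RefSeq start and the GENCODE gene model of CISH. It is written 5′ to 3′ with the matches in capitals.

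CISH promoter: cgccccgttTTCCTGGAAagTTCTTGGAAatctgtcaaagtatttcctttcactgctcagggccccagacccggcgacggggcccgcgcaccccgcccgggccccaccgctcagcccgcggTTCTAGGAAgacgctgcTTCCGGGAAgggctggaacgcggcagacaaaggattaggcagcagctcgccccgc

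The matches form a distal pair, TTCCTGGAA beginning at base -241 and TTCTTGGAA at -230, and a proximal pair, TTCTAGGAA at -129 and TTCCGGGAA at -112, counted from the RefSeq start. A match of letters does not show binding, and windows without a match say only that these letters are not in those bases. The other human members lie on chromosome 17 (STAT5B, STAT5A, STAT3 and SOCS3), 12 (SOCS2), 16 (SOCS1), 6 (PIM1), X (PIM2) and 22 (PIM3). CISH itself spans chr3:50606490-50611831 and PIM1 chr6:37170203-37175426 (plus strand). The 3 STAT genes are direct neighbours in GRCh38 (GENCODE release 29), within 189.4 kb from 42199168 to 42388568 and with no other protein-coding gene inside that span.

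TPM (a transcript's share of its library, scaled for transcript length to a total of 1000000) allow levels to be compared between genes but keep no read number, so depth is unknown. Replicate numbers in the labels match across treatments. In MOLM-13, libraries of the same number deviated together from their group means and are treated below as pairs. Nothing in the labels says that replicates were grown separately, so each p-value reflects only library-to-library spread, possibly technical. Differences are WM-1119 minus DMSO on the log2(TPM + 1) scale, where changes of low genes come out too small, and each has an SE estimated by limma. Means carry an SD (n = 3 per MOLM-13 group, n = 2 per ER-Hoxa9 group).

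Cell identity was checked against markers chosen by cell type. Myeloid progenitor genes summed to 7263 to 13066 TPM with DMSO and 9032 to 13534 TPM with WM-1119 in MOLM-13 (8 of 8 tested), and to 3320 to 4948 and 5305 to 5917 TPM in ER-Hoxa9 (7 of 8 tested). The T cell marker CD2 and the B cell marker MS4A1 were listed at 0 in every library of both lines, PF4 and PPBP in MOLM-13, and Cd3e and Cd3g in ER-Hoxa9. CD3D, another T cell marker, was present in both lines, with means of 11.96 and 4.74 TPM in MOLM-13 and 7.06 and 5.42 TPM in ER-Hoxa9 (DMSO and WM-1119). Monocyte markers were higher with WM-1119 in both lines without passing the test, at 783 to 2156 against 2324 to 3532 TPM in MOLM-13 (6 of 7 tested, all positive) and 7.51 to 11.1 against 17.8 to 22.0 TPM in ER-Hoxa9 (3 of 7 tested, all positive). LYZ made up most of the monocyte sum in MOLM-13, at means of 1347 and 2759 TPM (DMSO and WM-1119). The log2 differences of the tested monocyte genes there ran from 0.12 (CD68) to 1.20 (CYBB). Neutrophil maturation markers summed to 105 to 150.2 against 169.8 to 214 TPM in MOLM-13 (4 of 10 tested, all positive) and 155 to 232 against 119.9 to 299 TPM in ER-Hoxa9 (5 of 10 tested). Those neutrophil sums were mostly CSF3R in MOLM-13 and Lcn2 in ER-Hoxa9. In ER-Hoxa9 the B cell list, mostly Cd79b, summed to 20.8 to 32.5 against 49.4 to 56.5 TPM, the megakaryocyte list to 23.0 to 40.3 against 48.5 to 57.0 TPM, and the mast cell list, nearly all Cpa3, to 363 to 631 against 158 to 584 TPM. In MOLM-13 the erythroid list, mostly HBA1 and HBB, ranged from 0.116 to 149 TPM within DMSO and 0.163 to 210.4 TPM within WM-1119. The part of these markers in the results was not tested. Ribosomal protein genes held 39.8% (DMSO) and 33.9% (WM-1119) of TPM in the number 3 libraries of MOLM-13 and 25.7% to 28.4% in its others, and in ER-Hoxa9 29.9% to 34.0% with DMSO and 27.7% to 28.8% with WM-1119. The median difference over all tested genes was 0.05 in MOLM-13 and 0.12 in ER-Hoxa9, and -0.01 and -0.003 after median-of-ratios scaling. Each member's difference is to be read against those medians.

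None of the 10 members passed the limma test over all genes in either line (adjusted p under 0.05). The test called 0.00804% of 12436 genes in MOLM-13 and 0.0352% of 11362 in ER-Hoxa9, so it called next to nothing anywhere in the tables. Of the 4 calls in ER-Hoxa9, 0.0176% of genes were higher and 0.0176% lower. At an unadjusted p under 0.05 without pairing, 0 members passed in MOLM-13 and 1, Stat3, passed in ER-Hoxa9. With the replicate block (the pair as a term in the model), 4 members of MOLM-13 were under the unadjusted threshold, PIM1, SOCS2 and CISH with lower and STAT5A with higher values, against 4.91% of all genes lower and 13.2% higher. When median-of-ratios scaling was added to the block, 5 members were lower (those 3, PIM3 and SOCS1) and STAT5A was higher, against 9.17% and 8.88% of all genes. In ER-Hoxa9 the block put Cish and Stat3 under the unadjusted threshold on the higher side, Cish having entered the test through its WM-1119 libraries, against 15.5% of genes higher and 2.40% lower, and with median-of-ratios scaling as well it left Stat3 higher and Stat5a lower, against 10.1% and 7.03%. In MOLM-13 the adjusted p with the block alone were 0.168 for PIM1, 0.209 for SOCS2, 0.222 for CISH and 0.180 for STAT5A, so the differences described below are measurements that did not pass the test.

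In MOLM-13 most outputs had lower values and STAT3 and STAT5A higher values with WM-1119, none past the test. In such bulk RNA, fewer cells expressing a gene and less RNA per cell cannot be told apart. Within same-numbered pairs, 4 of the 10 members had a lower value with WM-1119 in all 3 pairs (PIM1, PIM3, SOCS2 and CISH), against 14.4% of all tested genes. STAT3 and STAT5A had a higher value in all 3, against 28.6%. After median-of-ratios scaling SOCS1 joined the first set and STAT3 left the second, making 5 against 23.0% and 1 against 19.6%. The median difference was -0.17 over the 3 PIM genes, -0.29 over the 4 CISH and SOCS genes and 0.18 over the 3 STAT genes.

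**Figure D1:**
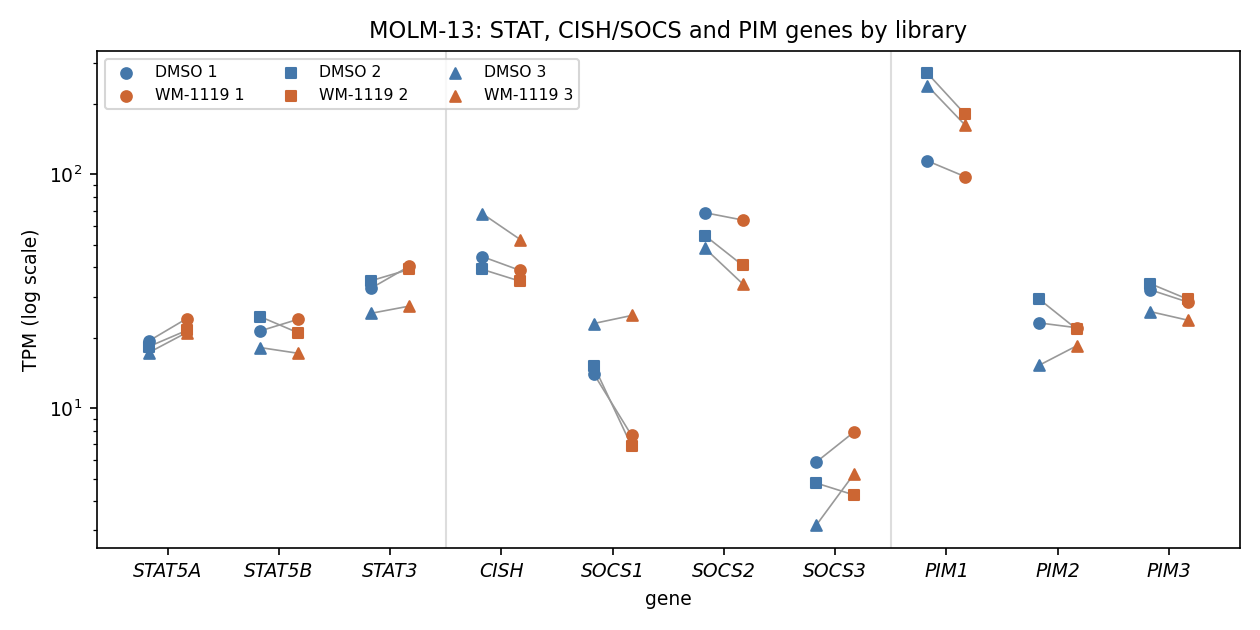
TPM (log axis) of the 10 genes in the 6 MOLM-13 libraries, blue for DMSO and orange for WM-1119, with a grey line joining libraries of the same number. The lines of CISH, SOCS2, PIM1 and PIM3 all slope down and those of STAT5A and STAT3 all slope up, while only the groups of STAT5A do not overlap.

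STAT5A, which acts beside its close paralog STAT5B downstream of FLT3 and many cytokine receptors, was at 19.4, 18.3 and 17.3 TPM with DMSO and 24.1, 21.5 and 21.04 TPM with WM-1119 (libraries 1, 2 and 3). Its WM-1119 libraries all lay above its DMSO libraries, the only member of which this held, against 4.54% of all tested genes. The difference was 0.26 ± 0.16 without and 0.26 ± 0.07 with the block (limma, unadjusted p = 0.138 and 0.0108). Without the number 1 pair the blocked p was 0.0606. STAT5B was at 18.2 to 24.6 TPM with DMSO and 17.2 to 24.0 TPM with WM-1119, overlapping fully, with a difference of -0.05 ± 0.20. STAT5A and STAT5B transcripts are similar, so reads shared by both could have been divided between them in either way.

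STAT3, the factor used by interleukin-6 type and G-CSF receptors, was at 32.6, 35.1 and 25.5 TPM with DMSO and 40.4, 39.2 and 27.3 TPM with WM-1119. Number 3 was lowest under both treatments, and the groups overlapped. The difference was 0.18 ± 0.22 (limma, unadjusted p = 0.437; 0.0552 with the block). It ranged from 0.05 without DMSO replicate 3 to 0.36 without WM-1119 replicate 3. By pair, STAT3 was 1.24, 1.12 and 1.07 times its DMSO value.

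CISH, the SH2-domain inhibitor that competes with STAT5 for docking sites on receptors, was at 44.5, 39.2 and 67.8 TPM with DMSO and 38.8, 34.9 and 52.6 TPM with WM-1119. The pairs were 0.873, 0.890 and 0.775 times DMSO, and number 3 was highest under both treatments. The groups overlapped, and the difference was -0.24 ± 0.27 without and -0.24 ± 0.07 with the block (limma, unadjusted p = 0.397 and 0.0236). The unpaired difference ranged from -0.41 without WM-1119 replicate 3 to -0.01 without DMSO replicate 3. Each of these leaves a high number 3 library without its pair. Without the whole number 3 pair the blocked difference was -0.18 (unadjusted p = 0.102), and without the number 1 pair -0.26 (0.0673). The number 3 pair also held the highest share of ribosomal protein genes. With those genes removed from the tables, which only rescales each library, the unpaired difference of CISH was -0.30. CISH was then lower in 3 of 3 pairs. The part of the ribosomal protein share in the CISH values was not tested.

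SOCS2, which limits growth hormone and other STAT5-activating receptors and is itself raised by STAT5, was at 68.5, 54.7 and 48.3 TPM with DMSO and 63.8, 40.8 and 33.99 TPM with WM-1119. The pairs were 0.930, 0.746 and 0.704 times DMSO. The difference was -0.34 ± 0.27 without and -0.34 ± 0.10 with the block (limma, unadjusted p = 0.252 and 0.0201). The unpaired value ranged from -0.59 without WM-1119 replicate 1 (unadjusted p = 0.0479) to -0.15 without WM-1119 replicate 3. The blocked p of SOCS2 was 0.0860 without the number 2 pair and 0.0968 without the number 3 pair. Under median-of-ratios scaling the groups of SOCS2 no longer overlapped, with all WM-1119 below all DMSO libraries, against 4.41% of genes.

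SOCS1, a direct inhibitor of JAK activity, split by library. It was at 14.02, 15.2 and 23.02 TPM with DMSO and 7.65, 6.89 and 24.9 TPM with WM-1119. Numbers 1 and 2 were at 0.545 and 0.453 times DMSO, and number 3 at 1.08 times. The difference was -0.58 ± 0.46, and leaving out WM-1119 replicate 3 moved it to -1.13 (limma, unadjusted p = 0.00365). SOCS3, which blocks JAKs at the interleukin-6 and G-CSF receptors, was the lowest member at 3.16 to 5.88 TPM with DMSO and 4.25 to 7.91 TPM with WM-1119, higher in 2 of 3 pairs, with a difference of 0.27 ± 0.27. That of SOCS3 ranged from 0.06 without WM-1119 replicate 1 to 0.44 without WM-1119 replicate 2.

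PIM1, a serine/threonine kinase and the most abundant member, was at 114, 271 and 239 TPM with DMSO and 97.7, 181 and 162 TPM with WM-1119. The spread within DMSO, 2.37-fold between libraries 1 and 2, was wider than the treatment difference, and the groups overlapped. By pair the WM-1119 values were 0.856, 0.667 and 0.678 times DMSO. The difference was -0.45 ± 0.38 without and -0.45 ± 0.10 with the block (limma, unadjusted p = 0.271 and 0.00579; adjusted 0.99999 and 0.168). Leaving out 1 library moved the unpaired value from -0.84 (without DMSO replicate 1, unadjusted p = 0.0288) to -0.19 (without WM-1119 replicate 1), while leaving out a pair kept the blocked value between -0.57 and -0.39, with an unadjusted p of 0.00318 to 0.0374. 

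PIM3, a kinase closely related to PIM1, was at 25.9 to 34.1 TPM with DMSO and 23.8 to 29.2 TPM with WM-1119 and stood at 0.885, 0.857 and 0.918 times DMSO by pair. The difference was -0.17 ± 0.19 (limma, unadjusted p = 0.396; 0.0506 with the block), and it ranged from -0.28 without DMSO replicate 3 to -0.08 without WM-1119 replicate 3. PIM2, which FLT3 signalling is known to raise, was at 15.2 to 29.4 TPM with DMSO and 18.5 to 22.1 TPM with WM-1119, lower in 2 of 3 pairs, with a difference of -0.07 ± 0.25. PIM2 and PIM3 varied together over the 6 libraries (Pearson r = 0.86), whereas PIM1 followed neither (r = -0.02 and 0.06). These r are descriptions over libraries that share their numbers and treatments.

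In DMSO-treated MOLM-13 the order of levels on the TPM scale was PIM1 (208 ± 82.7), SOCS2 (57.2 ± 10.4), CISH (50.5 ± 15.2), STAT3 (31.1 ± 5.01), PIM3 (30.7 ± 4.29), PIM2 (22.6 ± 7.09), STAT5B (21.4 ± 3.24), STAT5A (18.3 ± 1.04), SOCS1 (17.4 ± 4.88) and SOCS3 (4.61 ± 1.37). PIM1 stood clear of SOCS2, CISH of STAT3, and SOCS1 of SOCS3. All other neighbours in that order overlapped in range. PIM1 exceeded 96.7% of tested genes and SOCS2 and CISH 85.9% and 84.0%.

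Over the 6 MOLM-13 libraries, the genes with a pattern most like PIM1 among 7698 compared were CD3D (r = 0.992), ADSSL1 (0.988) and DLL1 (0.986). CD3D, a chain of the T cell receptor complex, was the T cell marker found in both lines, with CD2 at 0 in every library. CISH was most like RPL27 (r = 0.998) and RPL35 (0.987), both ribosomal proteins, and SKIDA1 (0.982). In all, 66 genes reached an r above 0.9 with PIM1 and 108 with CISH. These are descriptions over 6 libraries that share pairs and ribosomal protein share.

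In ER-Hoxa9 the same genes stood at other levels, and some differences had the other sign than in MOLM-13. Those of STAT3, SOCS3 and PIM3 had the same sign in both lines. The groups of 6 of the 10 members did not overlap with WM-1119 on the higher side (Stat3, Cish, Socs1, Socs2, Socs3 and Pim1), against 40.3% of all tested genes, and Stat5a lay wholly on the lower side, against 7.94%. After median-of-ratios scaling 5 remained on the higher side, against 22.4%, as Socs1 came to overlap, and Stat5a stayed on the lower side, against 22.5%. By number, the same 6 were higher in both comparisons as deposited and after scaling, against 53.0% and 33.0% of genes, and the lower ones were Stat5a as deposited, against 15.7%, and Stat5a and Pim3 after scaling, against 34.1%. With 2 libraries per group such separation is common, and these counts carry no test. The median difference was 0.43 over Cish and the Socs genes (Cish and Socs3 tested through their WM-1119 libraries), 0.10 over the Pim genes and 0.07 over the Stat genes, beside 0.12 over all genes.

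**Figure D2:**
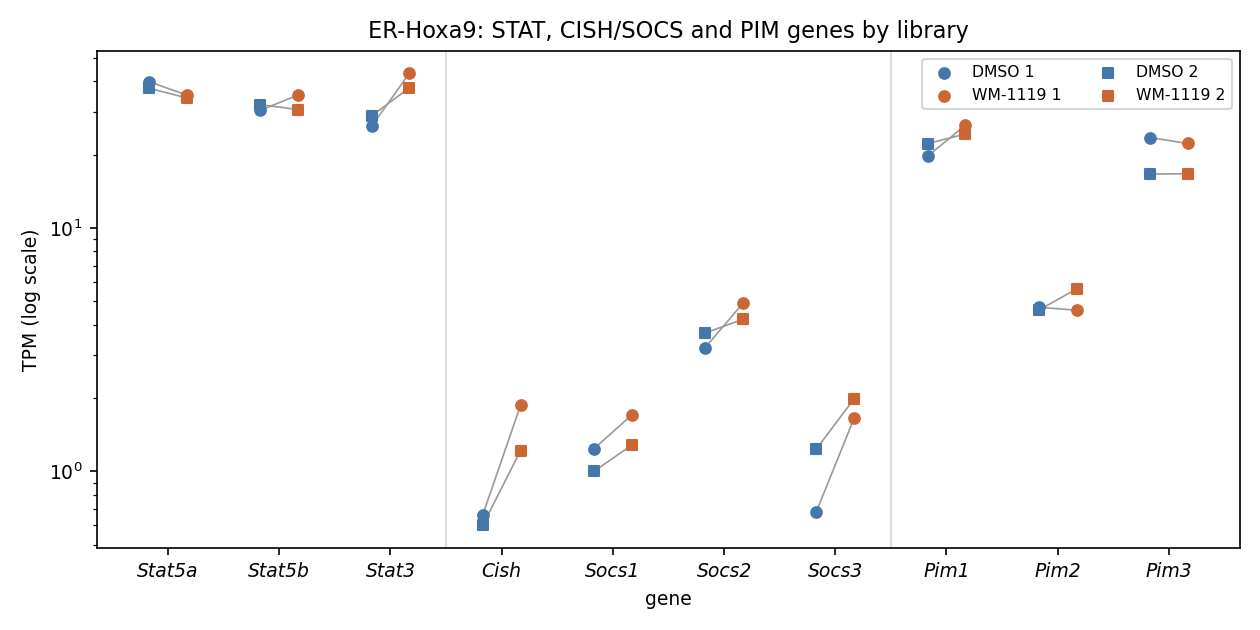
TPM (log axis) of the 10 genes in the 4 ER-Hoxa9 libraries, blue for DMSO and orange for WM-1119, with a grey line joining libraries that share a number. Stat and Pim genes lie mostly above 15 TPM and Cish, Socs1 and Socs3 below 2 TPM, with Cish and Stat3 higher in both WM-1119 libraries.

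Stat3 was at 26.1 and 28.8 TPM with DMSO and 43.1 and 37.6 TPM with WM-1119. Both treated libraries lay well above both controls, a ratio of means of 1.47. The difference was 0.54 ± 0.13, the lowest p of any member in this line (limma, unadjusted p = 0.00830; adjusted p = 0.309). It kept its direction under all 15 alternatives, between 0.41 and 0.63, and had an unadjusted p under 0.05 in 14 of them and not without WM-1119 replicate 1.

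Stat5a was at 39.8 and 37.4 TPM with DMSO and 35.1 and 34.2 TPM with WM-1119, below both controls by a narrow margin. Its difference was -0.15 ± 0.11 (limma, unadjusted p = 0.218), and -0.28 after median-of-ratios scaling (unadjusted p = 0.0417). Stat5b was at 30.4 and 32.05 TPM with DMSO and 35.1 and 30.6 TPM with WM-1119, with a difference of 0.07 ± 0.12 that turned to -0.06 after median-of-ratios scaling. The 2 Stat5 genes were the highest members in DMSO, ahead of Stat3.

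Cish, one of the most abundant members in MOLM-13, was the lowest here, at 0.663 and 0.601 TPM with DMSO and 1.87 and 1.22 TPM with WM-1119. Both treated libraries exceeded both controls, and the ratio of means was 2.44. The difference was 0.63 ± 0.25 (limma, unadjusted p = 0.0542; adjusted p = 0.394), and 1.14 with a pseudocount of 0.1 TPM, since a pseudocount of 1 weighs heavily at this level. Cish exceeded 0.475% of tested genes in DMSO, a rank that leaves out all genes averaging under 1 TPM. At such a TPM few reads may lie behind these values, and their number cannot be recovered from TPM. The filter on low values was passed through the WM-1119 libraries, so the difference of Cish is a description.

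Socs3 was at 0.683 and 1.24 TPM with DMSO and 1.66 and 1.99 TPM with WM-1119, with a difference of 0.54 ± 0.25 (limma, unadjusted p = 0.0842). It was 0.33 without DMSO replicate 1, 0.74 without DMSO replicate 2 and 0.90 with a pseudocount of 0.1 TPM. Socs3 too passed the filter on low values through its WM-1119 libraries, so its difference is a description. Socs2 was at 3.22 and 3.70 TPM with DMSO and 4.90 and 4.21 TPM with WM-1119, with a difference of 0.32 ± 0.17 (limma, unadjusted p = 0.123). Socs1 was at 1.24 and 1.00 TPM with DMSO and 1.70 and 1.28 TPM with WM-1119, with a difference of 0.23 ± 0.23 that ranged from 0.11 without WM-1119 replicate 1 to 0.35 without WM-1119 replicate 2. All 4 inhibitors, Cish included, had both treated libraries above both controls, as did 40.3% of all tested genes. After median-of-ratios scaling Socs1 overlapped, and Cish and Socs3 were tested through their WM-1119 libraries. None of the 4 had a mean above 5 TPM in either group.

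Pim1 was at 19.7 and 22.2 TPM with DMSO and 26.4 and 24.3 TPM with WM-1119, a difference of 0.27 ± 0.13 (limma, unadjusted p = 0.0860; adjusted p = 0.439). Both treated libraries lay above both controls. Pim2 was at 4.60 to 4.72 TPM with DMSO and 4.59 to 5.61 TPM with WM-1119, and Pim3 at 16.6 to 23.5 and 16.7 to 22.2 TPM, both overlapping, with differences of 0.10 ± 0.16 and -0.04 ± 0.22. For Pim3 libraries 1 and 2 differed more than the treatments did.

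In DMSO-treated ER-Hoxa9 the order on the TPM scale was Stat5a (38.6 ± 1.69), Stat5b (31.2 ± 1.18), Stat3 (27.5 ± 1.90), Pim1 (20.9 ± 1.77), Pim3 (20.05 ± 4.83), Pim2 (4.66 ± 0.0866), Socs2 (3.46 ± 0.336), Socs1 (1.12 ± 0.168), Socs3 (0.960 ± 0.391) and Cish (0.632 ± 0.0437). Only Pim1 and Pim3, and Socs1 and Socs3, overlapped among neighbours. With WM-1119 Stat3, at 40.3 ± 3.90 TPM, stood first and above the range of Stat5a. The MOLM-13 order was led by the outputs PIM1, SOCS2 and CISH, and since the tables were normalized separately the orders are compared only within a line.

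**Figure D3:**
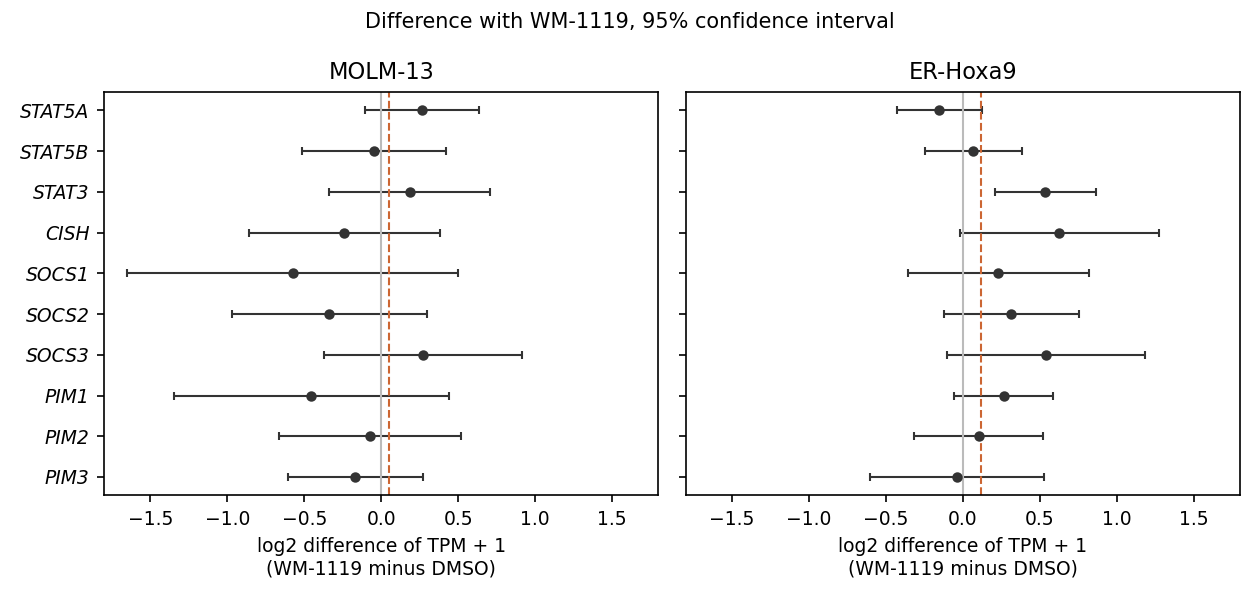
Difference of each gene in MOLM-13 (left) and ER-Hoxa9 (right), with bars for the 95% confidence interval from limma without the replicate block, a grey line at 0 and a dashed line at the median of all tested genes. All intervals include 0 except that of Stat3 in ER-Hoxa9, which runs from 0.21 to 0.86.

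The intervals are those of each gene alone, without adjustment over all genes, so they do not bound what the test left uncalled. In MOLM-13 the unpaired 95% interval of PIM1 ran from -1.35 to 0.44 and that of CISH from -0.86 to 0.38. With the replicate block they ran from -0.70 to -0.20 and from -0.43 to -0.05, and neither gene passed after adjustment. In ER-Hoxa9 the unpaired interval of Cish, which entered the test through its WM-1119 libraries, ran from -0.02 to 1.27. The lines were not tested against each other, since their tables were normalized separately. Side by side, PIM1, SOCS2 and CISH had lower values in each MOLM-13 pair and higher values in both treated ER-Hoxa9 libraries, and STAT5A the reverse. Of all tested genes, 14.4% were lower and 28.6% higher in every MOLM-13 pair. In ER-Hoxa9, 53.0% were higher and 15.7% lower in every comparison by number. STAT3 was the only member higher in every same-numbered comparison of both lines as deposited; after median-of-ratios scaling it was higher in 2 of 3 MOLM-13 pairs and both of ER-Hoxa9.

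The other genes of the pathway, from lists chosen for their roles, gave 0 calls in both lines (limma, adjusted p under 0.05), with or without the replicate block. At an unadjusted p under 0.05 they comprised, in MOLM-13, 2 of 13 tested receptors lower, 1 of 12 other signalling inhibitors higher and 1 of 14 other STAT targets lower, with 0 among the other STATs, JAKs, other SOCS genes and PIM substrates. The replicate block raised these MOLM-13 counts to 5 receptors higher and 3 lower, 3 inhibitors higher and 1 lower, 3 other targets lower, and 1 other STAT (STAT6), 1 JAK (JAK2) and 1 PIM substrate (BAD) higher, against 13.2% of all genes higher and 4.91% lower. IL2RA, which is in both the receptor and the target list, passed the filter on low values through its DMSO libraries alone. So did CCND1, another of the 3 targets lower with the block, at 1.58 TPM with DMSO and 0.562 TPM with WM-1119. In ER-Hoxa9 they comprised 5 of 10 receptors, 1 of 4 other STATs, 1 of 4 JAKs, 2 of 12 inhibitors and 1 of 7 PIM substrates higher and 1 of 13 other targets lower. For comparison, 2.08% of all MOLM-13 genes were higher and 0.965% lower at that threshold, and 11.6% and 1.13% of ER-Hoxa9 genes.

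**Figure D4:**
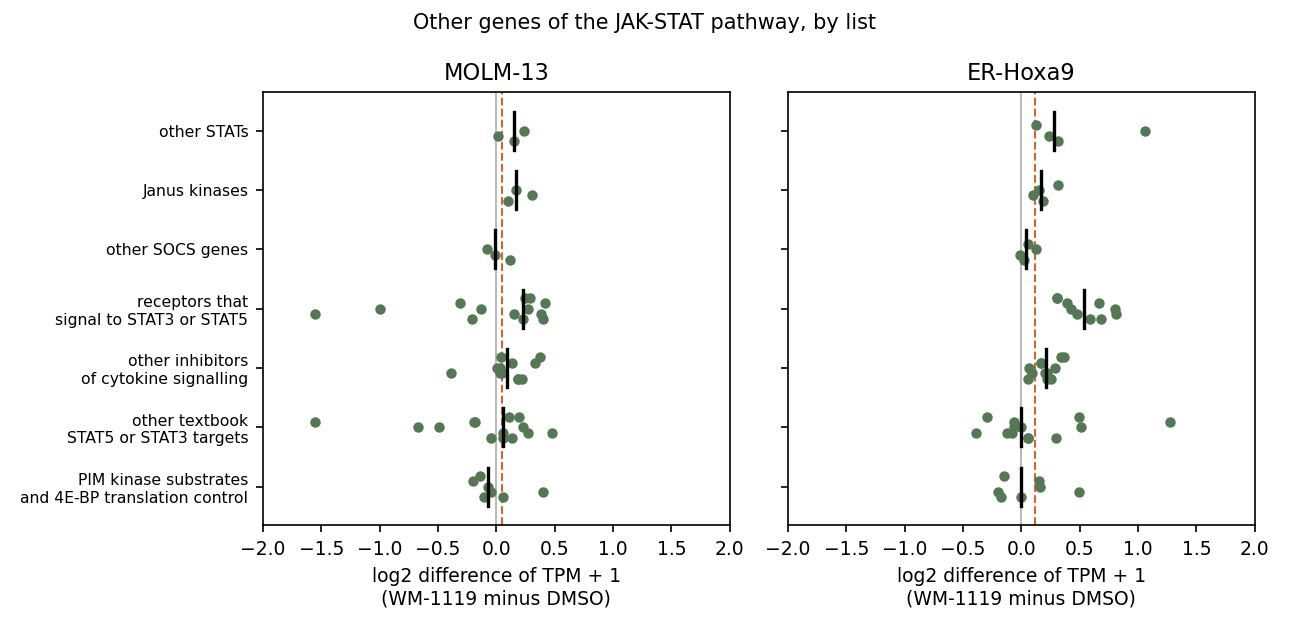
Difference of each tested gene in 7 lists of the pathway, 1 point per gene, with a black bar at the list's median, a grey line at 0 and a dashed line at the median of all tested genes. In ER-Hoxa9 all 10 receptors lie above 0, and in MOLM-13 IL2RA stands far to the left in both lists that hold it.

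Among receptors, the MOLM-13 list had 8 positive and 5 negative differences, with a median of 0.23. FLT3, the most abundant, was at 164 ± 15.1 TPM with DMSO and 142 ± 13.97 TPM with WM-1119, a difference of -0.21 ± 0.17. IL2RA, the alpha chain of the interleukin-2 receptor and itself a STAT5 target, was at 1.86, 4.73 and 3.13 TPM with DMSO and 0.501, 0.416 and 0.258 TPM with WM-1119. Every treated library lay below every control, against 2.43% of all tested genes. The difference of -1.55 ± 0.29 did not pass over all genes (limma, adjusted p = 0.590, and 0.141 with the block). IL2RA was tested only because its DMSO libraries lifted its mean above 1 TPM, so its difference is a description. KIT was at 0.281 ± 0.144 and 0.278 ± 0.163 TPM and was not tested.

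In ER-Hoxa9 all 10 tested receptors had positive differences, as did 71.9% of all tested genes, with a median of 0.53 against 0.12. Kit, the receptor of the stem cell factor in the medium, was the most abundant at 216 ± 16.04 TPM with DMSO and 269 ± 47.6 TPM with WM-1119. Flt3 was at 153 ± 10.5 and 231 ± 17.03 TPM, a difference of 0.59 ± 0.12 (limma, unadjusted p = 0.00380; adjusted p = 0.305). Both of its treated libraries exceeded both controls, against 40.3% of all genes, whereas FLT3 was lower in all 3 MOLM-13 pairs, against 14.4%. Il2ra stayed under the filter, at 0.880 ± 0.172 and 0.825 ± 0.00657 TPM.

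Of the kinases and other STATs, TYK2 was the most abundant JAK in MOLM-13, at 64.7 ± 7.45 and 72.6 ± 3.40 TPM, and JAK2, which serves many STAT5-activating receptors, had the lowest p of them at 7.92 ± 1.29 and 9.99 ± 1.46 TPM (0.30 ± 0.19; limma, unadjusted p = 0.145). All 3 tested JAKs and all 3 tested other STATs of MOLM-13 had positive differences, as did all 4 of each in ER-Hoxa9, beside 61.5% of all tested genes in MOLM-13 and 71.9% in ER-Hoxa9. In ER-Hoxa9 Jak2, at 0.10, lay below the median of all genes and Stat6, at 0.13, just above it. STAT6, the interleukin-4 factor, was the most abundant other STAT in both, at 79.2 ± 9.74 and 93.6 ± 12.3 TPM in MOLM-13 and 34.1 ± 1.28 and 37.3 ± 1.56 TPM in ER-Hoxa9. Stat4, which interleukin-12 activates, was at 8.08 ± 4.58 and 17.03 ± 5.09 TPM in ER-Hoxa9 (1.06 ± 0.40; limma, unadjusted p = 0.0450). Jak1 was the most abundant JAK there, at 35.2 ± 3.37 and 40.1 ± 0.152 TPM, and Tyk2 had the lowest p, at 15.7 ± 0.367 and 19.8 ± 0.249 TPM (limma, unadjusted p = 0.0376).

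The other SOCS genes had medians near 0, at -0.01 in MOLM-13 and 0.04 in ER-Hoxa9. In MOLM-13 SOCS5 was at 5.95 ± 0.626 and 5.90 ± 0.704 TPM and SOCS7 at 5.39 ± 0.457 and 5.02 ± 0.2204 TPM, and in ER-Hoxa9 Socs6 was at 23.8 ± 2.72 and 26.1 ± 4.24 TPM. PTPN6, the phosphatase SHP-1 that dephosphorylates receptors and JAKs, was the most abundant inhibitor in both lines, at 266 ± 35.2 and 272 ± 19.1 TPM in MOLM-13 and 117 ± 8.32 and 151 ± 7.36 TPM in ER-Hoxa9 (0.36 ± 0.11; limma, unadjusted p = 0.0229). PIAS3, which binds active STAT3, was at 7.44 ± 0.264 and 9.96 ± 0.701 TPM in MOLM-13 (0.38 ± 0.15, limma unadjusted p = 0.0405). Its WM-1119 libraries all lay above its DMSO libraries, against 4.54% of all tested genes.

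Other textbook targets had medians of 0.05 in MOLM-13 and -0.01 in ER-Hoxa9, the first equal to that of all genes to 2 decimals and the second below it. CCND3, cyclin D3, was the most abundant in MOLM-13, at 217 ± 48.3 and 245 ± 37.5 TPM. Myc was the most abundant and the one with the lowest p in ER-Hoxa9, at 309 ± 10.8 TPM with DMSO and 236 ± 16.2 TPM with WM-1119 (-0.39 ± 0.11; limma, unadjusted p = 0.0161). The 7 PIM substrates had 2 positive and 5 negative differences in MOLM-13 (median -0.08) and 3 positive and 4 negative in ER-Hoxa9 (median -0.005). Among the positive ones, BAD, a pro-apoptotic protein that PIM kinases inactivate, had non-overlapping groups in both lines. BAD was at 17.8 ± 2.43 and 23.8 ± 2.81 TPM in MOLM-13 (0.40 ± 0.18; limma, unadjusted p = 0.0649). In ER-Hoxa9 it was at 55.1 ± 2.41 and 78.1 ± 5.34 TPM (0.50 ± 0.11; limma, unadjusted p = 0.00677). All WM-1119 libraries lay above all DMSO libraries for 4.54% of tested genes in MOLM-13 and 40.3% in ER-Hoxa9. EIF4EBP1, a repressor of cap-dependent translation, was the most abundant substrate in MOLM-13 at 489.8 ± 95.3 and 463 ± 148 TPM, and Eif4b, a translation factor, in ER-Hoxa9 at 352 ± 0.165 and 318 ± 8.63 TPM.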

How the data were processed

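The deposited RNA sequencing tables, 1 for each line, give TPM by gene symbol, which the authors estimated with Salmon against hg38 or mm10, per the submitters' processing notes. No Salmon version or annotation is stated in the labels. Each column sums to 1000000. Columns were matched to samples by treatment and number, with 0 left over. The mouse columns carry a line name absent from the labels and were taken as ER-Hoxa9, the series' mouse line. Libraries were made by a company after RNeasy extraction, per the labels' protocols.

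Genes averaging 1 TPM or more in a line entered a fit of log2(TPM + 1) by limma 3.58.1 (eBayes with trend, R 4.3.3), two-sided, with Benjamini-Hochberg adjustment over all genes tested and a threshold of 0.05. The fit was tested on simulated data. Same-numbered MOLM-13 libraries deviated together (r across genes = 0.52, 0.44 and 0.61), so the numbers, which are in the labels, were taken as pairs. The fixed main fit has no block, so blocked values stand beside it. No count test could be run on TPM.

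The rule named all 10 members, and from each pathway list the most abundant gene, called genes, or otherwise the tested gene with the smallest p. The figures used matplotlib 3.10.9. Members and lists were chosen with earlier results of these data known. Promoter sequences are RefSeq's (GRCh38.p14), and gene coordinates GENCODE release 29 on GRCh38, the build hg38 names. Alternatives covered the block, pseudocount, filter, scaling, removed gene classes, trend and left-out libraries.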

Additional observations from a re-analysis of the deposited data

Results flagged for a closer look

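For 4 genes, every same-numbered comparison went one way in MOLM-13 and the other way in ER-Hoxa9. The log2 difference was -0.45 in MOLM-13 and 0.27 in ER-Hoxa9 for PIM1, -0.34 and 0.32 for SOCS2, -0.24 and 0.63 for CISH, and 0.26 and -0.15 for STAT5A. Cish entered the ER-Hoxa9 test through its WM-1119 libraries. Of all tested genes, 14.4% were lower and 28.6% higher in every MOLM-13 pair. In ER-Hoxa9, 53.0% were higher and 15.7% lower in every comparison by number. The share of all genes with opposite directions in the lines was not computed. The difference between the lines was not tested, because their tables were normalized separately and species, dose and medium differ. In each of the 4, both directions held under median-of-ratios scaling. No group has the 4 libraries needed to look for single outlying values.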

How the results depend on the processing

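In both lines 0 members were called under every alternative run, 20 for MOLM-13 and 15 for ER-Hoxa9, the replicate block included (0 members in each line). Of 379 comparisons of a count or a member's difference with its alternative, 362 kept their direction and their side of the threshold and 17 changed sign, all among PIM2, PIM3 and STAT5B, whose differences lie near 0. In MOLM-13, leaving out 1 library gave -0.32 to 0.13 for PIM2 and -0.15 to 0.077 for STAT5B, and the replicate block without the number 2 pair gave 0.098 and 0.040. In ER-Hoxa9, leaving out 1 library gave -0.018 to 0.22 for PIM2, -0.27 to 0.20 for PIM3 and -0.027 to 0.17 for STAT5B. There PIM2 was at -0.0076 and STAT5B at -0.061 under median-of-ratios scaling with or without the replicate block, -0.11 and -0.059 with quantile normalization, and STAT5B at -0.0039 without ribosomal protein genes. Calls over all genes moved from 1 in MOLM-13 to between 0 and 6, and from 4 in ER-Hoxa9 to between 0 and 16. The cause was not tested. Where 1 ER-Hoxa9 library was left out, the lone sample is assumed to vary like the other group. In ER-Hoxa9 the replicate numbers are shared labels only (r = 0.21, 2 pairs), and the block moved its members under an unadjusted p of 0.05 from 1 to 2. At a minimum mean of 5 TPM, Cish, Socs1, Socs2, Socs3 and Pim2 of ER-Hoxa9 were not tested, and Cish was not tested without WM-1119 replicate 1. TPM keep no depth, so the counting error of the low mouse values is unknown.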

Other observations

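The following 3 pathway genes lie outside the naming rule and were singled out after their values were seen. IL7R, a receptor that signals through STAT5 in lymphoid cells, was at 4.42 TPM with DMSO and 1.62 TPM with WM-1119 in MOLM-13 (limma, unadjusted p = 0.00862). Its WM-1119 libraries all lay below its DMSO libraries, against 2.43% of all tested genes. Csf2rb, the shared beta chain of the GM-CSF and interleukin-3 receptors, was at 21.2 and 37.4 TPM in ER-Hoxa9 (0.81; limma, unadjusted p = 0.0216), and it is similar in sequence to Csf2rb2, so their reads may be divided in either way. Irf8, a transcription factor of monocyte fate, was at 0.773 and 3.80 TPM with DMSO and 4.53 and 8.01 TPM with WM-1119 in ER-Hoxa9 (1.27; limma, unadjusted p = 0.0585). None of the 3 passed over all genes.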
